A study of Mus musculus with 6 samples.

Results

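Muscle ubiquitin ligases are the enzymes, and the substrate receptors of enzyme complexes, that attach ubiquitin to proteins of striated muscle. The 8 genes described here are Trim54, Trim55, Trim63, Trim72, Fbxo32, Rnf207, Asb2 and Mdm2. They were chosen by name with their values in these data already known, and each was found by its symbol as 1 probe set, so they make up 8 of the 20239 named genes of the table. Their values on the arrays labelled as lacking Hspa4 and on the wild-type arrays are the ones they were chosen on. They are therefore given as a description, with no test.

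The study put total RNA from heart ventricles of 129/Sv male mice, 3.5 weeks old, on 6 Affymetrix Mouse Gene 1.0 ST arrays. The labels give 3 arrays from Hspa4-/- mice and 3 from Hspa4+/+ mice, called wild type here, with 3 mice stated for each genotype. No treatment is named for any mouse. The sources used here do not say which part of Hspa4 was disrupted or whether the mice were littermates. Values are log2 array values, 1 for each probe set and array, where 1 unit is a doubling, and they are compared only within a gene. The number of arrays limits the precision.

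Protein breakdown by the proteasome begins when a ubiquitin ligase picks a protein and tags it with a chain of ubiquitin. In striated muscle the MuRF proteins sit on titin and the Z disc and tag contractile proteins, while atrogin-1, the product of Fbxo32, brings targets to a cullin-based complex. MuRF1 and atrogin-1 are widely used as markers of muscle wasting, and FOXO transcription factors are known to switch both genes on. Hspa4 itself encodes a chaperone of the Hsp110 family, which works beside Hsp70 in folding proteins or handing them on for degradation.

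The array labelled Hspa4-/- replicate 1 went against its label. Most differences of named genes and summaries of lists are given with it (6 arrays) and without it (5 arrays), the rest with it only. Hspa4 read 9.33 on it, near the wild-type arrays at 9.74, 9.50 and 9.48, while replicates 2 and 3 of that label read 6.63 and 6.75. Xist, an RNA of female cells, read 7.68 on it and between 5.51 and 5.69 on the other arrays. Of the Y-linked genes, Eif2s3y at 7.96 was below all other arrays (8.23 to 8.39), and so was Uty at 7.92 (8.15 to 8.57). Kdm5d at 6.85 was inside their range (6.77 to 7.10). Against wild type alone, Kdm5d was lower on every array labelled Hspa4-/- (6.85, 6.77 and 6.83 against 7.10, 7.07 and 6.96). So was Uty (7.92, 8.18 and 8.15 against 8.57, 8.28 and 8.45). These values were still well above 4.76, the lowest on any array. Ventricular cardiomyocyte markers, 11 of 11 measured, had means between 8.37 and 13.22. Skeletal muscle markers, 11 of 11 measured, had means between 5.58 and 7.19, in a table whose values start at 4.76. With all 6 arrays no gene passed the threshold of an adjusted p under 0.05 (limma, Benjamini-Hochberg over 20239 genes, 0% called), while 2261 had an unadjusted p under 0.05. Without the array labelled Hspa4-/- replicate 1, 89 genes passed (0.44%), a count that moved between 2 and 875 when 1 more array was left out.

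RefSeq promoter windows on the build GRCm38.p6, from 250 bases before to 50 bases after a start site, were found for 5 of the 8 genes: Trim54, Trim63, Trim72, Asb2 (2 start sites) and Mdm2. Trim54 and Trim63 are shown first because they are close relatives whose values went opposite ways. Both strands were searched for the FOXO motif TGTTTAC, the E-boxes CAGCTG and CACGTG, the MEF2 motif (CTA and TAG separated by 4 bases), a heat shock element TTCNNGAA, the glucocorticoid receptor motif TGTTCT, the TATA box TATAAA and the CArG box. Matches are in capitals, sequences run 5′ to 3′ along the gene, and positions count from the start site. The Trim54 window is chr5:31116362-31116661 on the plus strand and the Trim63 window is chr4:134314870-134315169 on the plus strand.
Trim54: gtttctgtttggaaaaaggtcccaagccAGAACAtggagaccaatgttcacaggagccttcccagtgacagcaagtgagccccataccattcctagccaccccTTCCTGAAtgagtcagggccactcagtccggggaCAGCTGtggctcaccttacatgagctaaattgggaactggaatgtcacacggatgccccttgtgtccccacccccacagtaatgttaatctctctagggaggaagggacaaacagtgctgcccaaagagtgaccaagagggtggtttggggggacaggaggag
Trim63: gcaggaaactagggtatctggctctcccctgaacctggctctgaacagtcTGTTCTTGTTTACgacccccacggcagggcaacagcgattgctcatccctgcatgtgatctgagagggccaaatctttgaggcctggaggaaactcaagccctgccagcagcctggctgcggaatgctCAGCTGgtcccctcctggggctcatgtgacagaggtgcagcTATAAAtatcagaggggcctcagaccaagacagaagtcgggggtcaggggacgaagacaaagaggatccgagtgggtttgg

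In the Trim63 window the FOXO motif began at −194, directly after a glucocorticoid receptor motif at −200, an E-box CAGCTG began at −72 and a TATA box at −31. The Trim54 window also held CAGCTG, at −113, and a glucocorticoid receptor motif, at −222. It had a heat shock element at −147 and no match to the FOXO motif. The FOXO motif was present in 3.65% of all 32851 promoter windows, CAGCTG in 16.3%, the glucocorticoid receptor motif in 19%, the heat shock element in 8.52% and TATAAA in 13.6%. A match is only a run of letters, and no binding was measured here.

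Trim72 and Asb2 are shown next. Both were highest on the array labelled Hspa4-/- replicate 3, as were Trim55, Trim63 and Rnf207. The Trim72 window is chr7:128004128-128004427 on the plus strand. The upstream Asb2 window is chr12:103355952-103356251 on the minus strand.
Trim72: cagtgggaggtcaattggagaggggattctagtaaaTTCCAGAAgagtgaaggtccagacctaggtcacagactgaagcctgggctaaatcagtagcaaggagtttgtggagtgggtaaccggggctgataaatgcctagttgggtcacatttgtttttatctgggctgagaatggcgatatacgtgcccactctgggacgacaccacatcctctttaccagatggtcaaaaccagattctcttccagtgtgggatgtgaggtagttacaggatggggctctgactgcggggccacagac
Asb2: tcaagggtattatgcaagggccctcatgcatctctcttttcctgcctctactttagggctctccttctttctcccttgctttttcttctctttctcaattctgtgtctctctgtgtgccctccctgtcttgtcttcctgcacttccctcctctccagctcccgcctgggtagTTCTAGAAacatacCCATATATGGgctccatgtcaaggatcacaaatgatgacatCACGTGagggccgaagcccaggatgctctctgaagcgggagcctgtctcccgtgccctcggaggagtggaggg

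The Trim72 window held a heat shock element at −214 and none of the other motifs. The Asb2 window held a heat shock element at −78, a CArG box, the element bound by serum response factor, at −64, and the E-box CACGTG at −23. CArG boxes were present in 1.63% of all windows and CACGTG in 7.15%. The second Asb2 window had CAGCTG at 22, and the Mdm2 window had CAGCTG at −233 and the FOXO motif, on the other strand, at −153. The MEF2 motif, present in 3.69% of all windows, was found in 0 of the 6 windows.

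The MuRF genes did not move as one family. Trim55, which encodes MuRF2, a ligase of the sarcomere that binds titin, read 8.68 on the array labelled Hspa4-/- replicate 1, 9.31 on replicate 2 and 9.55 on replicate 3, the order in which replicates are given below. It read 8.90, 8.77 and 8.70 on the wild-type arrays. Replicates 2 and 3 stood above every wild-type array, and replicate 1 just below the lowest of them. The means were 9.18 ± 0.45 (SD, n = 3) and 8.79 ± 0.10 (SD, n = 3), a log2 difference of 0.39. Without the array labelled Hspa4-/- replicate 1 the difference was 0.64, or 1.56-fold.

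Trim63, which encodes MuRF1, the ligase that tags myosin and troponin I, followed the same order at a smaller size. It read 8.17, 8.51 and 8.62 on the arrays labelled Hspa4-/- and 8.37, 8.12 and 8.27 in wild type. Replicates 2 and 3 were again above every wild-type array, and replicate 1 lay inside the wild-type range. The means were 8.43 ± 0.23 (SD, n = 3) and 8.25 ± 0.13 (SD, n = 3), a difference of 0.18, which became 0.31, or 1.24-fold, without replicate 1.

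Trim54, which encodes MuRF3, a ligase that binds microtubules and works with MuRF1 on myosin, went the other way. Its values were 7.71, 7.37 and 7.59 on the arrays labelled Hspa4-/- and 7.76, 7.92 and 7.70 in wild type. Replicates 2 and 3 were below all wild-type arrays, while replicate 1 was level with the lowest of them. The means were 7.56 ± 0.17 (SD, n = 3) and 7.79 ± 0.11 (SD, n = 3), a difference of −0.24. It was −0.31, or 1.24-fold lower, without replicate 1. On the arrays labelled Hspa4-/- replicates 2 and 3, then, both Trim55 and Trim63 were above wild type and Trim54 below, and on replicate 1 each of the MuRF genes was within 0.11 of the wild-type mean.

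**Figure D1:**
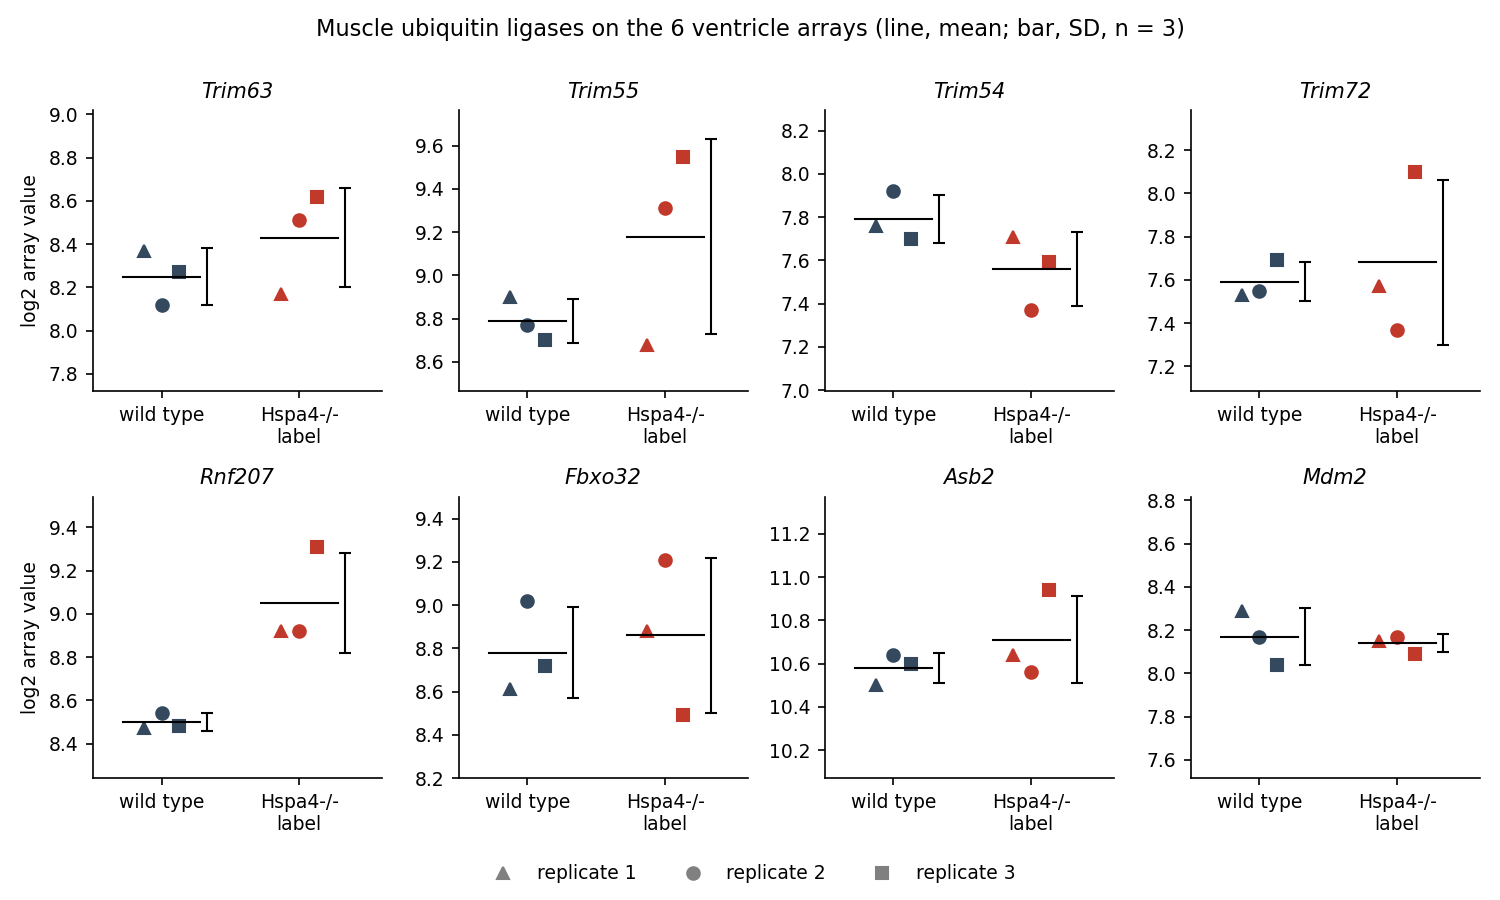
Log2 array value of each of the 8 genes on the 3 wild-type arrays and the 3 arrays labelled Hspa4-/-, with 1 symbol for each replicate number, a line at the group mean and a bar for its SD (n = 3); every panel spans the same log2 range. In Rnf207 every array labelled Hspa4-/- lies above the wild-type arrays, and in Trim55 the arrays labelled Hspa4-/- spread from 8.68 to 9.55.

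Rnf207 was the gene of the 8 whose groups did not overlap with all 6 arrays. It encodes a RING finger protein of heart muscle that has been tied to the HERG potassium channel and to the length of the QT interval. It read 8.92, 8.92 and 9.31 on the arrays labelled Hspa4-/-, and the wild-type arrays read 8.47, 8.54 and 8.48. All 3 arrays labelled Hspa4-/- were higher than all wild-type arrays, the replicate whose Hspa4 level goes against its label included. The means were 9.05 ± 0.23 (SD, n = 3) and 8.50 ± 0.04 (SD, n = 3), a difference of 0.55, or 1.46-fold. It was 0.62 without the array labelled Hspa4-/- replicate 1, which itself stood 0.42 above the wild-type mean. Of the 8 genes, 1 was higher and 0 lower without overlap between groups on 6 arrays, where 6.08% of all genes were higher and 9.07% lower in that way. On 5 arrays Rnf207, Trim55 and Trim63 were higher without overlap and Trim54 lower, where 14.4% of all genes were higher and 18.9% lower in that way. Since these values chose the genes, nothing is read from these counts.

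Trim72, which encodes MG53, a protein of membrane repair and a ligase for the insulin receptor pathway, differed between replicates of 1 label. It read 7.57, 7.37 and 8.10 on the arrays labelled Hspa4-/- and 7.53, 7.55 and 7.69 in wild type. Replicate 3 was above all wild-type arrays and replicate 2 below all of them, so the groups overlapped. The means were 7.68 ± 0.38 (SD, n = 3) and 7.59 ± 0.09 (SD, n = 3). The difference of 0.09 was less than the spread on the arrays labelled Hspa4-/-. It was 0.15 without replicate 1, −0.12 without replicate 3 and 0.01 with array weights.

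The substrate receptors of cullin complexes showed no shared shift. Fbxo32, which encodes atrogin-1, read 8.88, 9.21 and 8.49 on the arrays labelled Hspa4-/- and 8.61, 9.02 and 8.72 in wild type. Its order was the reverse of that of Trim72, with replicate 2 the highest of all arrays and replicate 3 the lowest. The means were 8.86 ± 0.36 (SD, n = 3) and 8.78 ± 0.21 (SD, n = 3), a difference of 0.08, and 0.07 without replicate 1. The sign turned without the array labelled Hspa4-/- replicate 2 (−0.10) and without wild-type replicate 1 (−0.01), and array weights gave 0.24. Asb2, the receptor through which a cullin 5 complex tags filamins, read 10.64, 10.56 and 10.94 on the arrays labelled Hspa4-/- and 10.50, 10.64 and 10.60 in wild type. Replicate 3 alone was above the wild-type arrays. The means were 10.71 ± 0.20 (SD, n = 3) and 10.58 ± 0.07 (SD, n = 3), a difference of 0.13 that was 0.17 without replicate 1 and 0.02 without replicate 3.

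Mdm2, the ligase that tags p53 and is itself a p53 target, was the steadiest of the 8 between the groups. It read 8.15, 8.17 and 8.09 on the arrays labelled Hspa4-/- and 8.29, 8.17 and 8.04 in wild type. All 3 arrays labelled Hspa4-/- lay inside the wild-type range. The means were 8.14 ± 0.04 (SD, n = 3) and 8.17 ± 0.13 (SD, n = 3), a difference of −0.03, and −0.04 without replicate 1. It was 0.03 without wild-type replicate 1.

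**Figure D2:**
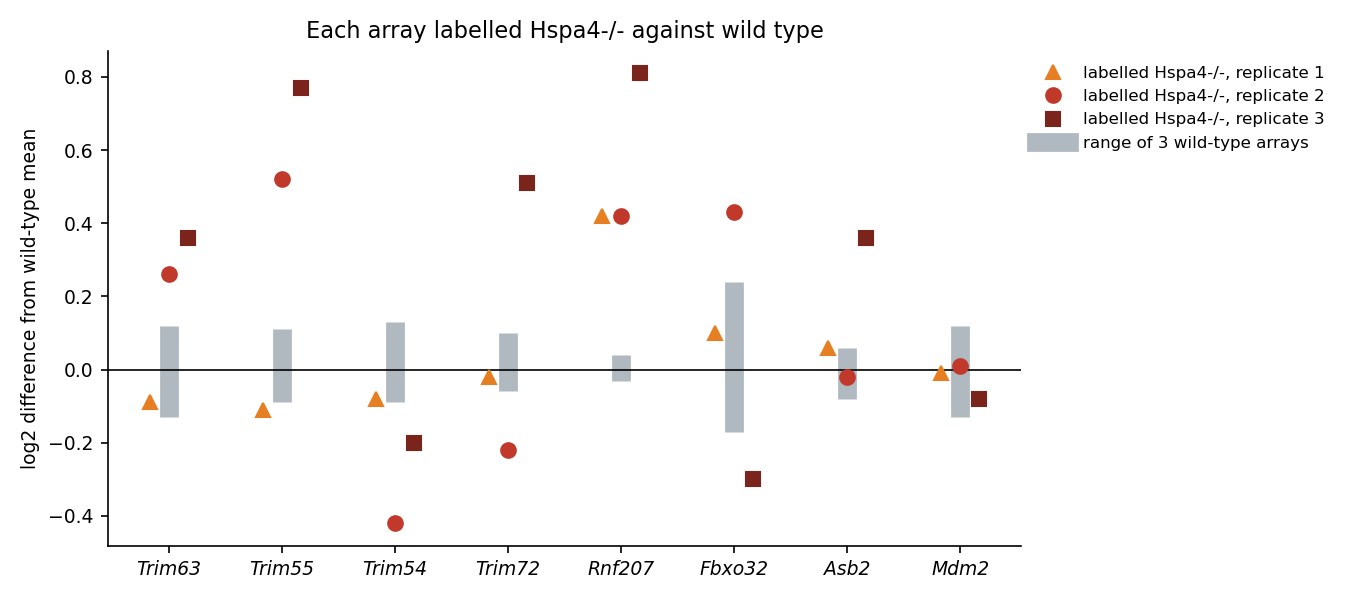
Log2 difference of each array labelled Hspa4-/- from the wild-type mean, for each of the 8 genes, with a grey bar for the range of the 3 wild-type arrays around their mean. Replicate 1 (triangles) lies near 0 except in Rnf207 (0.42), while replicates 2 and 3 lie on opposite sides of 0 in Trim72 (−0.22 and 0.51) and in Fbxo32 (0.43 and −0.30).

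Set side by side, the arrays labelled Hspa4-/- also differed among themselves. Replicate 1 lay outside the wild-type range in 2 of the 8 genes, Rnf207 and Trim55, where 54.3% of all genes did. Replicate 2 lay outside it in 6 of 8 (55.3% of all genes) and replicate 3 in 7 of 8, Mdm2 being the exception (59.5% of all genes). The median size of the 8 differences from the wild-type mean was 0.08 on replicate 1, 0.34 on replicate 2 and 0.36 on replicate 3. Over all genes the median was 0.087, 0.086 and 0.098. The 8 genes were chosen with these values known, and the comparison is not matched by level, so nothing is read from it. Between replicates 2 and 3, which both had low Hspa4, Trim72 differed by 0.73 and Fbxo32 by −0.73 (replicate 3 minus replicate 2, log2 scale). Over the 8 genes the median difference between groups was 0.11 with 6 arrays and 0.16 with 5, with 6 genes higher and 2 lower in both, where 45.8% of all genes were higher on 6 arrays. The median over all genes was −0.01 and −0.02.

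**Figure D3:**
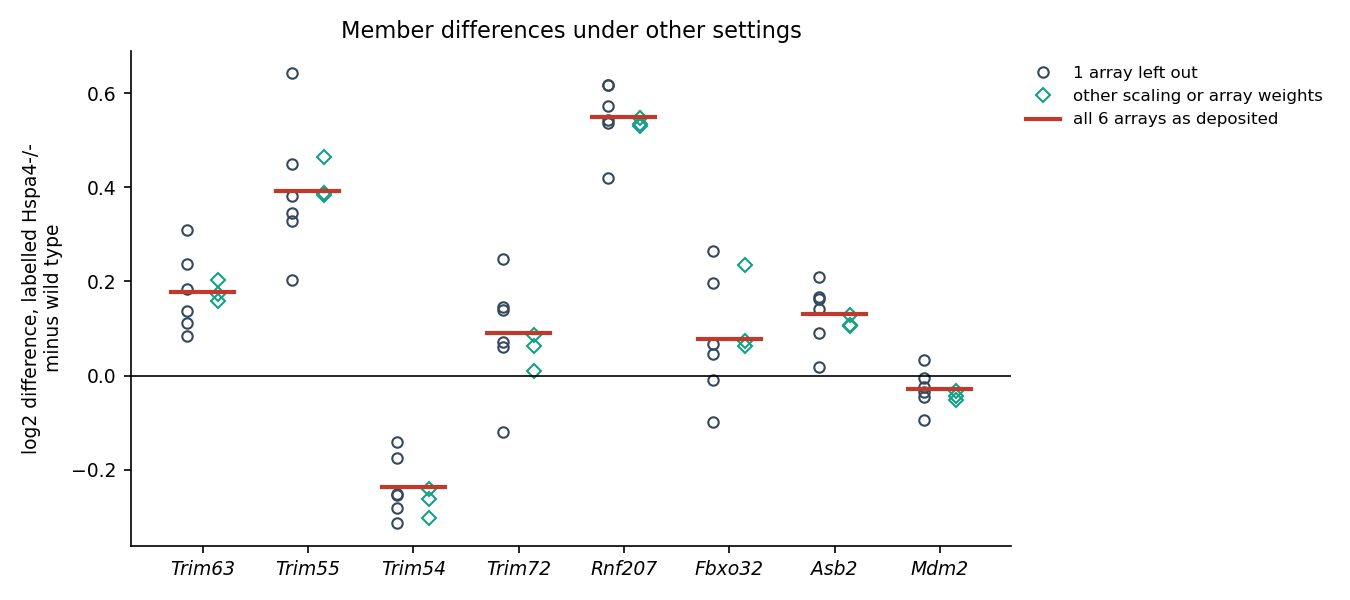
Log2 difference, arrays labelled Hspa4-/- minus wild type, for each of the 8 genes, with all 6 arrays as deposited (red line), with each array left out in turn (circles) and with quantile normalisation, subtracted medians or array weights (diamonds). Rnf207 stays between 0.42 and 0.62 and Trim54 between −0.31 and −0.14, while Trim72, Fbxo32 and Mdm2 have points on both sides of 0.

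The rest of the machinery was followed through 7 lists of other genes, 214 in all, written with earlier results of these data known. None of the 214 passed with 6 arrays (limma, 0% of all genes called), and 54 had an unadjusted p under 0.05, 31 higher and 23 lower. That is 25.2% of the list genes beside 11.2% of all genes. With the lowest 50% of genes left out, it was 44 of 189 list genes beside 1589 of 10119 genes. Since earlier results were known when the lists were written, nothing is read from these shares. Without the array labelled Hspa4-/- replicate 1, 2 of the 214 passed, Asb15 downward and Perp upward, beside 0.44% of all genes.

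Other ubiquitin ligases of muscle, 50 measured, had a median difference of −0.02, with 21 higher and 29 lower. With 5 arrays the median was 0.01, with 25 higher and 25 lower. Asb15, a muscle relative of Asb2, read 10.45, 10.08 and 9.82 on the arrays labelled Hspa4-/- and 10.59, 10.65 and 10.52 in wild type. All arrays labelled Hspa4-/- were below all wild-type arrays, replicate 1 least so. The log2 difference was −0.47 (SE 0.14, n = 3 per group; limma, adjusted p = 0.261) with 6 arrays. It was −0.64 (SE 0.09, n = 2 against 3; limma, adjusted p = 0.0319) with 5, where Asb15 fell 1.56-fold. That call was lost when wild-type replicate 1 (limma, adjusted p = 0.161), wild-type replicate 3 (limma, adjusted p = 0.175) or the array labelled Hspa4-/- replicate 3 (limma, adjusted p = 0.168) was left out too. Stub1, which encodes CHIP, the ligase that tags clients of Hsp70 and Hsp90, differed by 0.33 (SE 0.08; limma, adjusted p = 0.229). Wwp1, a HECT-type ligase, differed by −0.29 (SE 0.07; limma, adjusted p = 0.213). With 5 arrays Stub1 differed by 0.41 (limma, adjusted p = 0.0620) and Wwp1 by −0.30 (limma, adjusted p = 0.109). Their groups did not overlap with 6 arrays, where Stub1 was higher and Wwp1 lower.

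Among the scaffold and adaptors of cullin complexes, which carry both atrogin-1 and Asb2, 14 of 26 were higher and the median was 0.01. With 5 arrays 19 of 26 were higher and the median was 0.07. Dcun1d1, which helps attach the activator NEDD8 to cullins, read 8.24, 8.30 and 8.42 on the arrays labelled Hspa4-/- and 9.15, 8.61 and 8.87 in wild type. Its difference was −0.56 (SE 0.12; limma, adjusted p = 0.212). Cand2, a muscle relative of the cullin exchange factor Cand1, differed by 0.43 (SE 0.11; limma, adjusted p = 0.234). Elob, the elongin B gene, whose product links receptors such as Asb2 to cullin 5, differed by 0.38 (SE 0.11; limma, adjusted p = 0.270). Values of the groups were apart in each of these 3 genes, and none passed the threshold. With 5 arrays the differences were −0.51 for Dcun1d1, 0.50 for Cand2 and 0.48 for Elob, and again none passed (limma, lowest adjusted p = 0.0867).

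Ubiquitin-activating and ubiquitin-conjugating enzymes, which hand ubiquitin to the ligases, had a median of 0.02 over 27 genes, 16 of them higher, and of 0.03 with 5 arrays, 17 of them higher. Uba6, an activating enzyme, differed by −0.41 (SE 0.08; limma, adjusted p = 0.210), and Ube2v2, the partner of the conjugating enzyme Ube2n, by −0.44 (SE 0.10; limma, adjusted p = 0.221). Ube2z differed by 0.20 (SE 0.08; limma, adjusted p = 0.358). With 5 arrays these were −0.38, −0.41 and 0.22, and none passed (limma, lowest adjusted p = 0.0934). In Uba6 and Ube2v2 every array labelled Hspa4-/- was below every wild-type array.

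Genes whose proteins are known as targets or partners of the 8 ligases had the largest median of the 7 lists, 0.19 over 33 genes. These are RNA values, and neither protein amount nor tagging was measured. Of the 33, 26 were higher and 7 lower, and 11 had an unadjusted p under 0.05 upward and 0 downward, where 5.64% and 5.53% of all genes did. With 5 arrays 27 were higher and 6 lower, with a median of 0.21. The beta-myosin gene Myh7, a target of the MuRF proteins, differed by 0.58 (SE 0.14; limma, adjusted p = 0.221). For desmin, Des, the difference was 0.46 (SE 0.12; limma, adjusted p = 0.245), and for the kinase gene Akt1 it was 0.34 (SE 0.09; limma, adjusted p = 0.250). With 5 arrays the differences were 0.70 for Myh7, 0.47 for Des and 0.42 for Akt1. None of the 33 passed on 6 or on 5 arrays (limma; 11 and 17 with an unadjusted p under 0.05). Ventricular cardiomyocyte markers, of which 5 are also in this list, were higher in 11 of 11 with a median of 0.23, or 0.26 with 5 arrays. Their summed level, as log2 of the sum of linear values, ran from 15.52 to 15.61 on the arrays labelled Hspa4-/- and from 15.39 to 15.47 in wild type, with the lowest of the former on replicate 1. Without the shared genes 21 of 28 were higher, with a median of 0.18. The 28 still hold muscle genes, Myh7 and Des among them, so this split cannot take cardiomyocyte RNA out of the list. The part of cardiomyocyte RNA in these values was not tested, and in bulk tissue fewer cells of a type and less RNA per cell cannot be told apart. The summed level of the 7 macrophage markers was lower, from 10.33 to 10.45 against 10.57 to 10.64, with 0 of 7 higher and a median of −0.21 on both 6 and 5 arrays. The summed level of the 9 atrial and conduction markers was higher without overlap, from 10.95 to 12.03 against 10.52 to 10.89. Nppa weighed heavily in that sum, at 9.43, 10.52 and 11.49 against 8.62, 8.94 and 8.50, and no sum was taken without it. By gene, 6 were higher, Nppa the most at 1.8, and Hcn4, Bmp10 and Nr2f1 were lower. The list median was 0.15, or 0.19 with 5 arrays. The sex-linked list joins Xist (0.58, high on replicate 1 only) with the Y-linked Eif2s3y (−0.18), Kdm5d (−0.22) and Uty (−0.35). Its sum mixes markers of opposite sexes, so nothing is read from it. That sum was lower without overlap, from 9.54 to 9.66 against 9.69 to 9.80. The 11 skeletal muscle markers overlapped, from 9.67 to 9.74 against 9.63 to 9.72, as did the remaining marker lists.

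**Figure D4:**
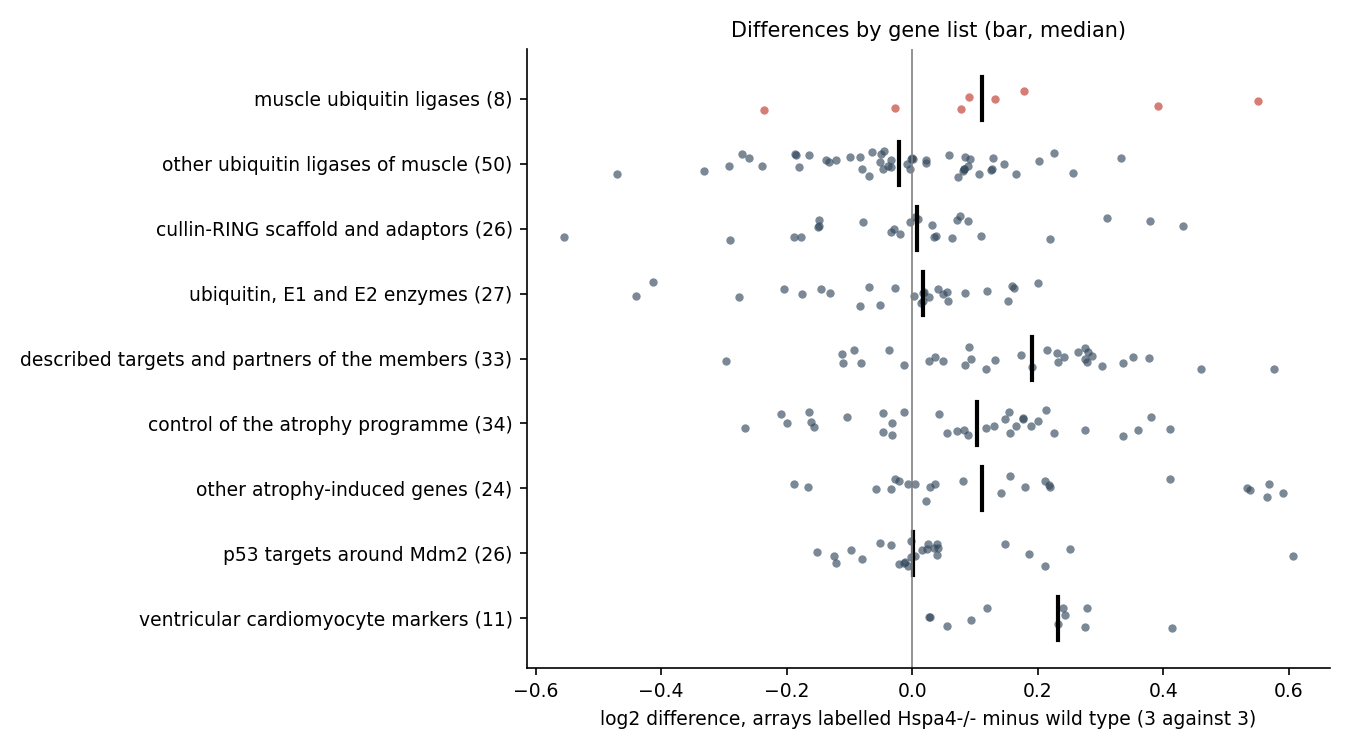
Log2 difference, arrays labelled Hspa4-/- minus wild type (3 against 3), for the 8 ligase genes (red), the other genes of the 7 lists and the cardiomyocyte markers, with 1 point for each gene, a bar at each list's median and the number of genes in parentheses. Medians lie between −0.02 and 0.02 for other ligases, cullin scaffolds, ubiquitin enzymes and p53 targets, and at 0.19 for targets and partners and 0.23 for cardiomyocyte markers.

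Genes that control muscle wasting, 34 measured, had a median of 0.10, with 22 higher, and of 0.09 with 5 arrays, with 23 higher. The kinase gene Akt1, which restrains FOXO factors, is also in this list. Klf15, a glucocorticoid-induced factor known to drive Trim63 and Fbxo32 in skeletal muscle, read 8.12, 8.21 and 8.26 on the arrays labelled Hspa4-/- and 7.67, 8.07 and 7.63 in wild type. Its groups did not overlap, and the difference was 0.41 (SE 0.11; limma, adjusted p = 0.250). Tnfsf12, the gene of the cytokine TWEAK, differed by 0.38 (SE 0.08; limma, adjusted p = 0.210). With 5 arrays Klf15 differed by 0.45 (limma, adjusted p = 0.163) and Tnfsf12 by 0.41 (limma, adjusted p = 0.0986). Other genes known to rise in wasting muscle, 24 measured, had a median of 0.11, with 17 higher, and of 0.09 with 5 arrays, also with 17 higher. Eif4ebp1, which encodes a translation repressor, differed by 0.53 (SE 0.14; limma, adjusted p = 0.245). Mt2, a metallothionein gene, differed by 0.54 (SE 0.15; limma, adjusted p = 0.256). With 5 arrays Eif4ebp1 differed by 0.64 (limma, adjusted p = 0.0877) and Mt2 by 0.61 (limma, adjusted p = 0.150). Wild-type replicate 2 was the highest wild-type array in all of Klf15, Eif4ebp1 and Mt2.

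Around Mdm2, 26 genes known as p53 targets or partners had a median of 0.00, with 13 higher and 13 lower, and of 0.01 with 5 arrays, with 14 higher and 12 lower. Perp, which encodes a membrane protein of desmosomes and is a target of p53, read 8.54, 8.75 and 9.05 on the arrays labelled Hspa4-/- and 8.13, 8.35 and 8.04 in wild type. The groups did not overlap. Its difference was 0.61 (SE 0.13; limma, adjusted p = 0.210) with 6 arrays and 0.73 (SE 0.12, n = 2 against 3; limma, adjusted p = 0.0442) with 5, where it rose 1.66-fold. Of the arrays left out besides replicate 1, only wild-type replicate 2 left Perp past the threshold (limma, adjusted p = 0.0107), and leaving out any of the other 4 gave an adjusted p between 0.0572 and 0.240. Ddb2, a DNA repair gene, differed by 0.19 (SE 0.08; limma, adjusted p = 0.415). Ccng1, the cyclin G1 gene, differed by −0.15 (SE 0.07; limma, adjusted p = 0.474). With 5 arrays they differed by 0.26 and −0.20, and neither passed (limma, adjusted p = 0.145 and 0.240).

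Beside their own gene families, read by symbol with the 8 genes left out, 0 of 61 other Trim genes passed with 6 arrays, and their differences ran from −0.33 (Trim7) to 0.32 (Trim25). Trim55 at 0.39 lay above that range, while Trim54 at −0.24, Trim63 at 0.18 and Trim72 at 0.09 lay inside it. With 5 arrays the range ran from −0.47 to 0.35, with Trim55 at 0.64, Trim54 at −0.31, Trim63 at 0.31 and Trim72 at 0.15. The 78 other Rnf genes ran from −0.24 (Rnf141) to 0.36 (Rnf167), below Rnf207 at 0.55. With 5 arrays they ran from −0.26 to 0.47, with Rnf207 at 0.62. The 35 other Fbxo genes ran from −0.26 (Fbxo30) to 0.27 (Fbxo10), and the 17 other Asb genes from −0.47 (Asb15) to 0.23 (Asb18). With 5 arrays the Fbxo range was −0.34 to 0.39 and the Asb range −0.64 to 0.25. Fbxo32 and Asb2 lay inside those ranges on 6 and on 5 arrays. Since the 8 genes were chosen with these values known, nothing is read from where they lie in their families. Among 55 deubiquitinase genes of the Usp family, which remove ubiquitin, the range ran from −0.31 (Usp33) to 0.40 (Usp22), and with 5 arrays from −0.46 to 0.50. Usp22, of the SAGA chromatin complex, rose by 0.50 with 5 arrays (SE 0.08; limma, adjusted p = 0.0495), and with 6 its adjusted p was 0.227 (limma). That 5-array call was kept without wild-type replicate 2 (limma, adjusted p = 0.0115) and lost without any of the other 4 arrays.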

How the data were processed

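Values were used as deposited. Per the submitters' processing notes, the authors computed the log2 values with affy in R 2.13.0. The sources used here do not give the background correction, the normalisation or the summary method, and no measure of background was used, so signal over background is unknown. Of 21225 probe sets, 20239 carried 1 gene symbol in the platform annotation and 986 none. Each symbol had 1 probe set.

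A model of the 2 groups was fitted with limma 3.58.1 (R 4.3.3) over the 20239 genes. It used Benjamini-Hochberg adjustment over all of them and no low-value filter. A check on simulated data gave every array labelled Hspa4-/- the same effect, so it does not cover a replicate that goes against its label. The 8 genes got no test. Members, lists and tests were chosen with earlier results of these data known. Lists are described by counts and medians. Named list genes are the 3 with the smallest p in each list and any past the threshold on 6 or 5 arrays. From each family the gene furthest from 0 in each direction is named. The alternatives were low-value filters, quantile normalisation, subtracted medians, array weights, a replicate block and left-out arrays. Pairs of arrays shared 11 to 30 identical values, so no array was a copy. The labels state 3 mice per genotype but tie no array to a mouse, so the p-values measure the spread between arrays.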

Additional observations from a re-analysis of the deposited data

How the results depend on the processing

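With 6 arrays the count of genes past the threshold (limma) was 0 as deposited, with quantile normalisation and with subtracted medians. It was 2 with either low-value filter and 115 with array weights. Leaving out 1 array gave 0 to 112 genes, with 89 without the array labelled Hspa4-/- replicate 1 and 112 without wild-type replicate 2. Leaving out a wild-type array besides replicate 1 gave 2 to 875, with 875 without wild-type replicate 2. Where a further array labelled Hspa4-/- is left out instead, the lone one left is assumed to vary like the wild-type arrays. Of the 214 list genes, 0 passed as deposited and 2 with array weights. Leaving out 1 array gave 0 to 7 of them, and leaving out a further one besides replicate 1 gave 0 to 27. The replicate block gave 2 genes, and 0 list genes. Same-numbered arrays did not deviate together (correlations of deviations −0.172, 0.092 and −0.249 for numbers 1, 2 and 3), so the numbers were not taken as pairs. The median difference of the 8 genes, 0.11 as deposited, ran from 0.05 to 0.17 with 1 array left out. Over 9 settings Trim54, Trim55, Trim63, Rnf207 and Asb2 kept their sign. Outside these 9, Asb2 differed by −0.02 with the arrays labelled Hspa4-/- replicates 1 and 3 both left out. Leaving out 1 array moved Trim55 between 0.20 and 0.64, Trim63 between 0.08 and 0.31 and Asb2 between 0.02 and 0.21. Pseudocounts were not run, since the values are log2 already.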

Other observations

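Genes next to the 8 ligase genes on the RefSeq assembly GRCm38.p6, 1 measured protein-coding gene on each side, did not pass (limma, 0 of 16 with 6 or 5 arrays, 1 with an unadjusted p under 0.05 on 6). Their differences ran from −0.29 to 0.11 with 6 arrays and from −0.33 to 0.16 with 5. Both neighbours of Rnf207, Icmt (0.06) and Rpl22 (0.09), differed by less than Rnf207 itself (0.55), which was chosen with its value known. Klhl38, a muscle kelch gene beside Fbxo32, differed by 0.08 (SE 0.09; limma, adjusted p = 0.822). The gene with the unadjusted p under 0.05 was Itgam, an integrin gene of myeloid cells beside Trim72, at −0.29 (SE 0.08; limma, adjusted p = 0.245).

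The genes whose values over the 6 arrays were most like those of a ligase gene were picked from the whole table by the highest Pearson r, so a high r is what the choice returns. The 6 points are the same arrays for every gene and fall into 2 groups. For Rnf207 they were Pdgfrb (r = 0.996) and Pcif1 (r = 0.988), for Trim55 Maged2 and the myosin light chain gene Myl9 (both r = 0.993), and for Trim63 Phldb2 (r = 0.993) and Skap2 (r = 0.991). For Trim54 they were Epha4 (r = 0.991) and Pm20d1 (r = 0.972), and for Fbxo32 Rasgef1b (r = 0.970) and Smco1 (r = 0.966). For Trim72 they were Entpd6 (r = 0.988) and the mitochondrial fusion gene Mfn2 (r = 0.972), for Asb2 Hnrnpa0 (r = 0.995) and Kif26b (r = 0.989), and for Mdm2 Ifi209 (r = 0.992) and Ica1 (r = 0.982).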
